A study of Mus musculus with 6 samples.

Results

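The acrosome and egg-binding genes are 10 genes chosen by name: Acr, Acrbp, Acrv1, Dkkl1, Spaca1, Spaca3, Spaca7, Zpbp, Zpbp2 and Izumo1. They were found by their gene symbol in the scanner tables, which gave 14 probes of 55681. Of the 10 genes, 9 passed the filter on dim probes and were tested among 25276 genes, and Izumo1 did not pass. The acrosome is a large secretory vesicle that forms from the Golgi apparatus in round spermatids and caps the sperm nucleus. It holds proteases and binding proteins that are released when the sperm meets the egg coat, the zona pellucida. Proteins on the membrane bared by that release then attach to and fuse with the egg.

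The scrotum was heated once, at 43 °C for 20 min, and 10 days later RNA of the whole testis was read on one-colour Agilent arrays. The 3 B6 samples came from C57BL/6 mice labelled wild type. The 3 B6.MRLc1 samples came from the congenic strain B6.MRLc1-(D1Mit202–D1Mit403), which carries the telomeric part of chromosome 1 of MRL mice, from 67.97 to 81.63 cM, on the C57BL/6 background. All samples in both groups were from males 3 months old and all were heated, so no value here is a response to heat. The comparison asks which genes differ between the strains in heated testis, in a study whose title concerns the onset of calcification there. None of the member genes lies on chromosome 1: their probes map to 7 other chromosomes. The labels do not say that each array is a separate animal, so the p-values measure the spread between these samples.

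Of all spots, 58.0% to 69.0% were well above background, the scanner's own flag for a spot brighter than its surroundings, and the 3 lowest shares were those of the B6.MRLc1 arrays. No spot was saturated. On the slide, B6 filled row 1 and B6.MRLc1 row 2, and an effect of the row cannot be told apart from one of strain. The replicate number is also the slide column in both rows. All 10 listed Sertoli cell markers and 10 of 12 spermatocyte markers were well above background on all 6 arrays while 6 of 7 epididymis markers were so on none. Levels below are log2 signal relative to the 75th percentile of the array, so that 0 is the 75th percentile and each unit is a doubling. The level of one probe cannot be set against that of another. Differences are B6.MRLc1 minus B6, and a gene was called when its limma p, adjusted by the Benjamini-Hochberg method over all genes tested, was under 0.05.

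Of the 9 tested genes, 5 were called lower in B6.MRLc1 testes and 0 higher. The 5 were Dkkl1, Acr, Zpbp2, Spaca3 and Spaca7. Of all tested genes 2.63% were called, 2.22% lower and 0.404% higher. The members were chosen with earlier results of these data known, so their counts beside these shares are a description and not a test. On 7 of the 9, every B6.MRLc1 array lay below every B6 array, as did 13.8% of all tested genes, and on none of the 9 did every one lie above, as did 14.8%. The arrays of the strains overlapped for Spaca1 and Zpbp. The median difference of the 9 genes was -1.36, against 0.02 over all genes tested, and was -0.52 with normexp, a background correction fitted to all spots. Normexp was run with an offset of 50 added to every spot, which by itself draws the log2 differences of dim probes toward 0. Spaca3, Spaca7 and Acrv1 were dim on 2 B6.MRLc1 arrays and passed the filter only through B6, where they are high. Over the 6 members well above background on all 6 arrays, 3 were called lower (1.47% of all such genes), 4 were below on every array (11.8%) and the median was -0.68. With dim values raised to a floor, the lowest level flagged well above background on the array, 5 of 9 were called lower (1.47% of all genes). In RNA of a whole testis, fewer cells of a type and less RNA per cell cannot be told apart.

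**Figure D1:**
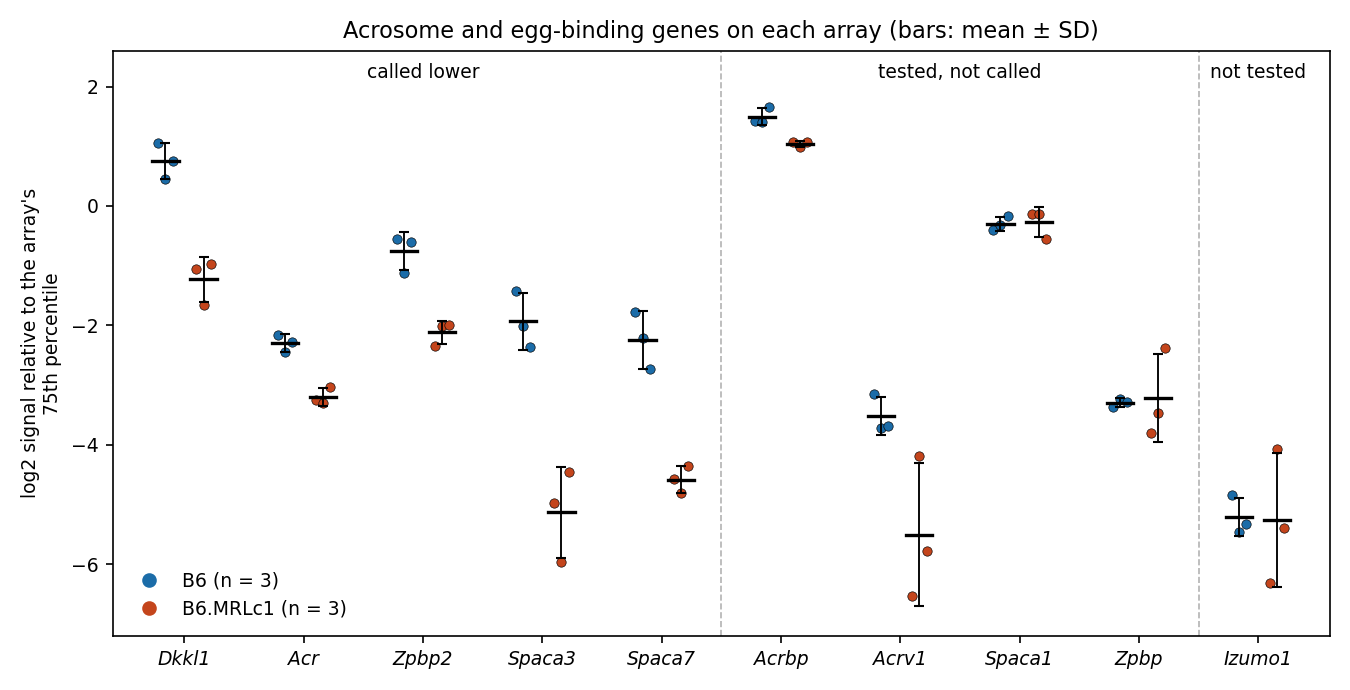
Level of each member gene (log2, 0 at the 75th percentile) on every array, with 3 B6 and 3 B6.MRLc1 arrays, a bar for the mean and a whisker for the SD. The strains are apart for the 5 called genes and for Acrbp and Acrv1, and overlap for Spaca1, Zpbp and Izumo1; heights of different genes are not comparable.

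Among the enzymes and matrix proteins of the acrosome, Acr encodes acrosin, the serine protease of the acrosomal matrix. Its probe (chr15:89404729-89404788, mm9) read -2.16, -2.45 and -2.28 on B6 arrays 1 to 3 and -3.25, -3.31 and -3.03 on B6.MRLc1 arrays 1 to 3. All 6 arrays were well above background and the strains did not overlap. Acr fell by 0.90 (SE 0.11, n = 3 per strain; limma adjusted p = 0.0266), to 53.5% of the B6 signal, and measured -0.52 with normexp (limma adjusted p = 0.0202). Acrbp encodes the protein that binds proacrosin, the inactive precursor, and governs its packing and activation. Its brightest probe (chr6:125004152-125004211) read 1.42, 1.40 and 1.66 in B6 and 1.07, 0.98 and 1.07 in B6.MRLc1. The strains did not overlap, but the difference of -0.45 (SE 0.09) did not pass (limma adjusted p = 0.0616). With normexp Acrbp passed at -0.46 (limma adjusted p = 0.0309).

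Acrbp is known to yield a full-length and an intron-retaining transcript in mouse spermatids, and the array annotation sorts its 3 probes by RefSeq variant. A probe of variants 1 and 2 (chr6:125001291-125001350) differed by -0.38, the brightest probe, of variant 2 alone, by -0.45, and a probe of variant 1 alone (chr6:125013191-125013250) by -0.25. When every probe was tested on its own, none of the 3 passed (limma adjusted p = 0.113, 0.0753 and 0.29), where 1.56% of all probes were lower. The strains overlapped for the probe of variant 1 alone (-0.379 on B6 array 1, -0.367 on B6.MRLc1 array 2) and not for the other Acrbp probes. The gap between the variant 2 probe and the variant 1 probe was 1.67 ± 0.12 in B6 and 1.47 ± 0.12 in B6.MRLc1 (SD, n = 3), and its change of -0.20 gave p = 0.2 (exact permutation test, two-sided; adjusted p = 0.3 over 3 such gaps), where 3 against 3 arrays allow no p under 0.1. The 30 bases that open each probe are shown because the probes tell the transcript variants apart.
Acrbp variants 1 and 2: ctatcccccaacactctcaaggaggtggag
Acrbp variant 2: gggttctggtcttatctctggccttgatta
Acrbp variant 1: cattttctttgggttgggagaacagtccca

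Acrv1 encodes SP-10, a protein of the acrosomal matrix made from the round spermatid stage. Its probe (chr9:36506253-36506313) read -3.16, -3.72 and -3.69 in B6 and -6.54, -4.19 and -5.79 in B6.MRLc1. Every B6.MRLc1 array lay below every B6 array, but only B6.MRLc1 array 2 was well above background. The measured difference of -1.98 (SE 0.60) did not pass (limma adjusted p = 0.152). It was -0.42 with normexp and -1.14 with the floor, so its size is not fixed by these data.

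Spaca3 encodes a lysozyme-like protein of the acrosome, and Spaca7 an acrosomal protein released when the acrosome opens. The Spaca3 probe (chr11:80681253-80681312) read -1.42, -2.01 and -2.36 in B6 and -4.98, -5.97 and -4.45 in B6.MRLc1. The Spaca7 probe (chr8:12600663-12600722) read -1.78, -2.21 and -2.74 in B6 and -4.58, -4.82 and -4.36 in B6.MRLc1. Both had wide gaps between the strains: the lowest B6 array stood 2.09 above the highest B6.MRLc1 array for Spaca3 and 1.63 for Spaca7. Spaca3 fell by 3.21 (SE 0.44; limma adjusted p = 0.032) and Spaca7 by 2.34 (SE 0.26; limma adjusted p = 0.0228), with n = 3 per strain. Only B6.MRLc1 array 3 was well above background for either gene, and the differences were -1.17 and -1.04 with normexp, where both still passed (limma adjusted p = 0.0178 and 0.0172). Both background treatments gave the same direction, and the size depended on the treatment. The scanner's estimate of additive error, which sets how dim a spot may be and still pass as well above background, was 2.66 to 3.14 in B6 and 3.38 to 5.68 in B6.MRLc1. Its part in these values was not tested.

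Dkkl1 encodes an acrosomal protein related to the Dickkopf family, known for a part in passage through the zona pellucida. Its probe (chr7:52462916-52462975) read 1.05, 0.44 and 0.76 in B6 and -1.06, -1.66 and -0.98 in B6.MRLc1. It was well above background on all 6 arrays, and the lowest B6 array stood 1.42 above the highest B6.MRLc1 array. Dkkl1 fell by 1.98 (SE 0.24, n = 3 per strain; limma adjusted p = 0.0256), a 3.94-fold difference, and measured -1.64 with normexp (limma adjusted p = 0.00878). Dkkl1, Acr and Zpbp2 were the 3 called members that were well above background on every array.

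Zpbp and Zpbp2 encode a pair of related proteins of the acrosomal matrix that bind the zona pellucida and are needed for a normally shaped sperm head. The brighter Zpbp2 probe (chr11:98419809-98419868) read -0.55, -1.13 and -0.60 in B6 and -2.34, -2.02 and -1.99 in B6.MRLc1. Zpbp2 fell by 1.36 (SE 0.19, n = 3 per strain; limma adjusted p = 0.0322), to 39.1% of the B6 signal, and measured -1.04 with normexp (limma adjusted p = 0.0132). The Zpbp probe (chr11:11315309-11318192, minus strand) is 60 bases long, and its mapped position spans 2.88 kb of genome. It read -3.37, -3.23 and -3.28 in B6 and -3.81, -3.47 and -2.38 in B6.MRLc1. The strains overlapped for Zpbp, which measured 0.08 (SE 0.36; limma adjusted p = 0.925), and its sign turned to -0.34 without B6.MRLc1 array 3. The gap between the Zpbp2 and Zpbp probes was 2.53 ± 0.38 in B6 and 1.10 ± 0.62 in B6.MRLc1 (SD, n = 3), and its change of -1.43 gave p = 0.1 by an exact permutation test (two-sided), the smallest p that 3 against 3 arrays allow. It was one of 3 such gaps tested, and its adjusted p was 0.3.

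The other Zpbp2 probe (chr11:98419766-98419825) overlaps the brighter one by 17 bases, so the pair do not read the transcript independently. It fell by 1.33 when every probe was tested on its own (SE 0.21; limma adjusted p = 0.0492), and the brighter probe measured -1.36 in that fit (limma adjusted p = 0.0372). The last 30 bases of the upstream probe and the 30 that open the downstream probe show the shared stretch in capitals.
Zpbp2 upstream probe: gcttctgagaaggCATTTATCTCTGTGCCT
Zpbp2 downstream probe: CATTTATCTCTGTGCCTccggtgtacgaga

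Spaca1 encodes a protein of the inner acrosomal membrane that is needed for the acrosome to form and the sperm head to take shape. Its brighter probe (chr4:34115355-34115414, minus strand) read -0.40, -0.31 and -0.17 in B6 and -0.13, -0.13 and -0.56 in B6.MRLc1. The strains overlapped, and the difference was 0.02 (SE 0.14; limma adjusted p = 0.939). The other Spaca1 probe (chr4:34116046-34116105) measured 0.13 (SE 0.13; limma adjusted p = 0.624 with every probe tested on its own). The pair do not overlap in position, and both were well above background on all arrays.

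**Figure D2:**
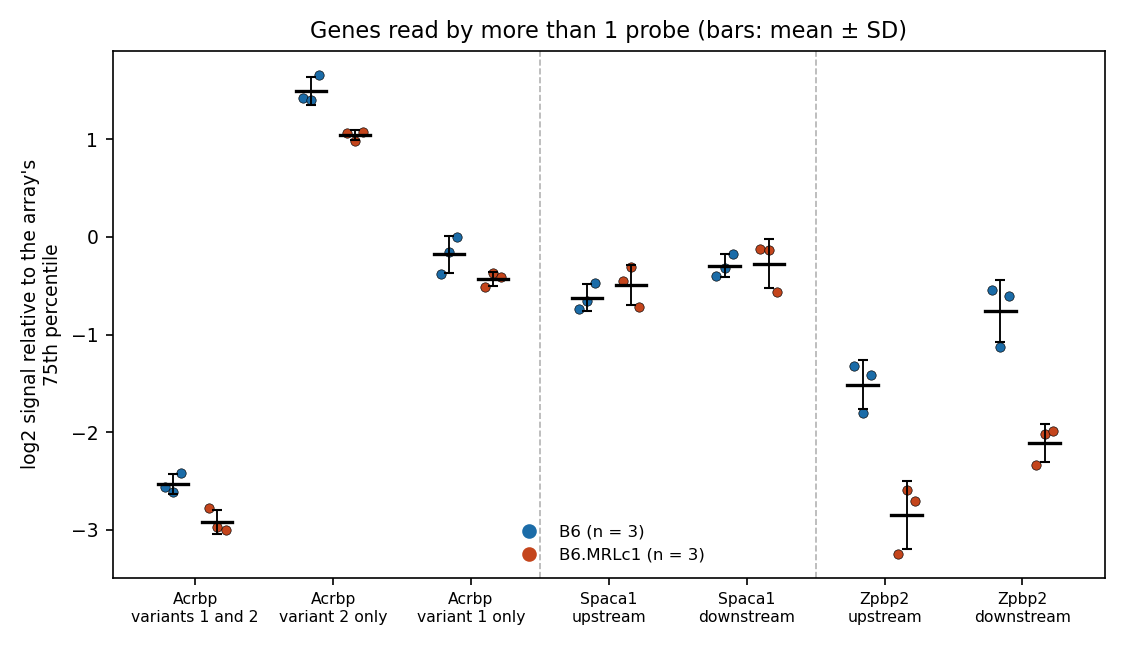
Level on every array for the 3 genes read by more than 1 probe (log2, 0 at the 75th percentile), with mean and SD over 3 arrays per strain. Both Zpbp2 probes are lower in B6.MRLc1, and the 3 Acrbp probes measured -0.45 to -0.25 with none passing. The strains overlap for the Acrbp probe of variant 1 alone and for both Spaca1 probes.

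Izumo1 encodes the sperm membrane protein that binds Juno on the egg and is required for fusion. Its only probe (chr7:52882553-52882612, 0.420 Mb from that of Dkkl1) read -4.84, -5.46 and -5.33 in B6 and -6.32, -4.07 and -5.39 in B6.MRLc1. It was well above background on only B6 array 1 and B6.MRLc1 array 2, which left it out of the tests. The strains overlapped widely, and without the filter on dim probes Izumo1 measured -0.05 (SE 0.59; limma adjusted p = 0.971). A difference in Izumo1 was not detectable at this signal.

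**Figure D3:**
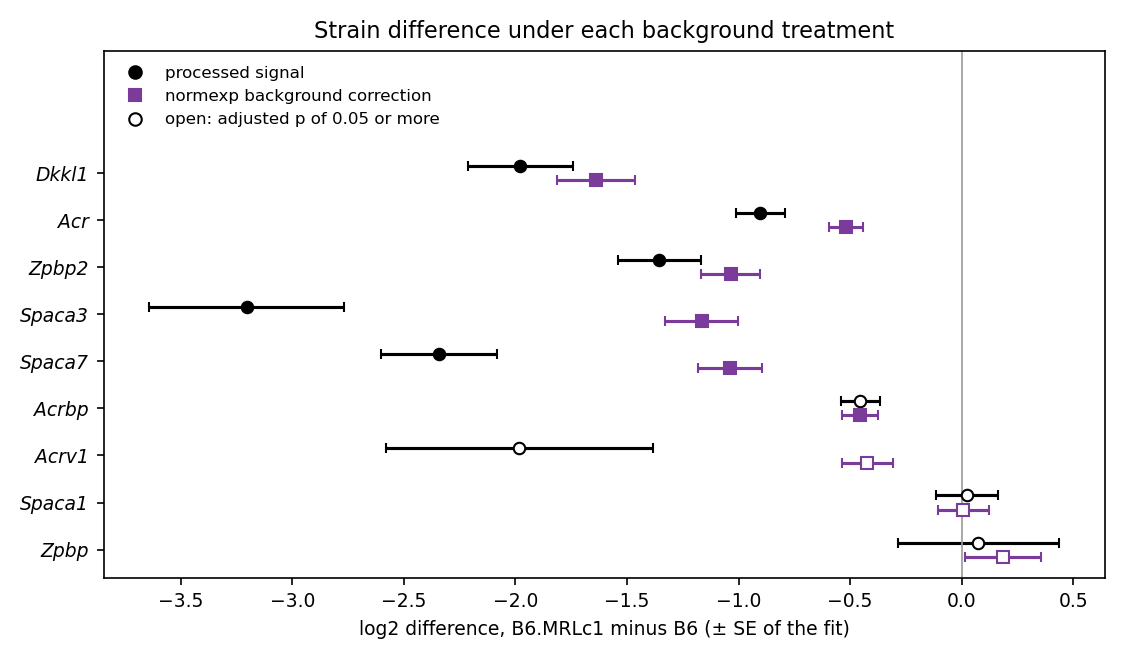
Fitted log2 difference, B6.MRLc1 minus B6, with the SE of the fit, for the 9 tested genes from the processed signal and with normexp, filled where the gene was called. Spaca3, Spaca7 and Acrv1, which were dim on 2 B6.MRLc1 arrays, move toward 0 with normexp, as does Acr, from -0.90 to -0.52, and Acrbp goes from not called to called. The normexp offset of 50 by itself draws dim genes toward 0.

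The calls were not steady when 1 array was left out, although the directions of the 5 called genes were. With B6 array 1, B6.MRLc1 array 1 or B6.MRLc1 array 2 dropped in turn, 0 of the 9 genes were called by limma, while 6, 7 and 7 of them had an unadjusted p under 0.05. Of all 25276 genes tested, 4057, 4315 and 4385 had such a p in the same fits. The adjusted p of the 5 genes then ran from 0.062 to 0.101, from 0.0743 to 0.0953 and from 0.0594 to 0.0875. Without B6 array 2 only Zpbp2 passed (adjusted p = 0.0342, the others 0.0534 to 0.102), and without B6 array 3 only Spaca7 (0.0258, the others 0.0536 to 0.0639). Without B6.MRLc1 array 3 all but Zpbp2 (0.0653) passed, at 0.0406 to 0.0485. The fitted differences ran from -0.99 to -0.83 for Acr, -2.13 to -1.77 for Dkkl1, -1.54 to -1.24 for Zpbp2, -3.55 to -2.79 for Spaca3 and -2.59 to -2.11 for Spaca7 over the 6 fits. Without the filter on dim probes 0 of 10 were called by limma, with 7 at an unadjusted p under 0.05, and the 5 genes stood at adjusted p = 0.0566 to 0.0691. In that run 7745 of all 35019 genes had an unadjusted p under 0.05. With normexp 6 of 9 were called lower, where 2.42% of all genes were. Spaca3 and Spaca7, among those 6, passed the filter only through B6, where they are high. With the deposited series values only Acr, Dkkl1 and Zpbp2 were called.

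Within a strain the members did not all follow the same array. B6 array 1 held the highest B6 value for 6 of the 9 tested genes, and B6.MRLc1 array 3 the highest B6.MRLc1 value for 7. B6.MRLc1 array 3 also had the largest share of spots well above background in its strain (64.7%), and that share's part in the values was not tested. The mean of the members, each centred on its own mean over the arrays, was 0.87, 0.55 and 0.60 on B6 arrays 1 to 3 and -0.83, -0.71 and -0.48 on B6.MRLc1 arrays 1 to 3. Across the 6 arrays that mean correlated at r = 0.82 to 0.99 with 7 of its own members, and at 0.05 with Zpbp and -0.24 with Spaca1, as a description in which each gene is part of the mean.

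The 5 other named genes whose pattern over the 6 arrays was most like that mean were Spata33, Hsfy2, Ak8, Atp6ap1l and BC048507 (r = 0.998, 0.997, 0.997, 0.996 and 0.996). Spata33, a gene of the sperm tail, measured -1.12 (SE 0.10; limma adjusted p = 0.0191). Ak8, an adenylate kinase gene, measured -1.18 (SE 0.09; limma adjusted p = 0.0117), and BC048507 measured only -0.19 (limma adjusted p = 0.134). Atp6ap1l measured -2.61 (limma adjusted p = 0.0246) with 1 B6.MRLc1 array well above background, and Hsfy2 was at least 2.41-fold higher in B6 (limma adjusted p = 0.0217 on the measured values, 0.0943 and so not called with the floor), with none. Likeness of pattern here, a Pearson correlation, reflects the relative spacing of the 6 arrays and not the size of the difference. The members' mean is itself apart between the strains, so genes picked for likeness to it are apart through the choice. Their limma p-values are therefore no separate result.

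Other genes of the acrosome and of egg binding were taken from a list of 60 set by known role. That list too was chosen with earlier results of these data known, so its counts are a description and not a test. Of the 60 genes, 49 were tested. Of these, 36 were well above background on all 6 arrays, of which 3 were lower (Lyzl6, Lyzl4 and Clgn; 1.47% of all such genes) and 0 higher, 8 were below on every array (11.8%), and the median difference was -0.05. The other 13 were dim on some array, and those high in B6 could pass the filter through B6 alone. Counting them, 9 of 49 were lower and 0 higher, against 2.22% of all genes, 6 with the floor and 7 with normexp. By role, 1 of 12 genes of acrosome biogenesis, 3 of 10 of the acrosomal matrix and membrane, 3 of 14 of zona binding and its chaperones, 2 of 7 of gamete fusion and 0 of 6 of the acrosome reaction were lower. Over the genes well above background on all arrays the counts were 0 of 10, 2 of 7, 1 of 11, 0 of 3 and 0 of 5, with medians of -0.01, -0.74, -0.05, 0.06 and 0.03. Whether the roles differ from each other was not tested.

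**Figure D4:**
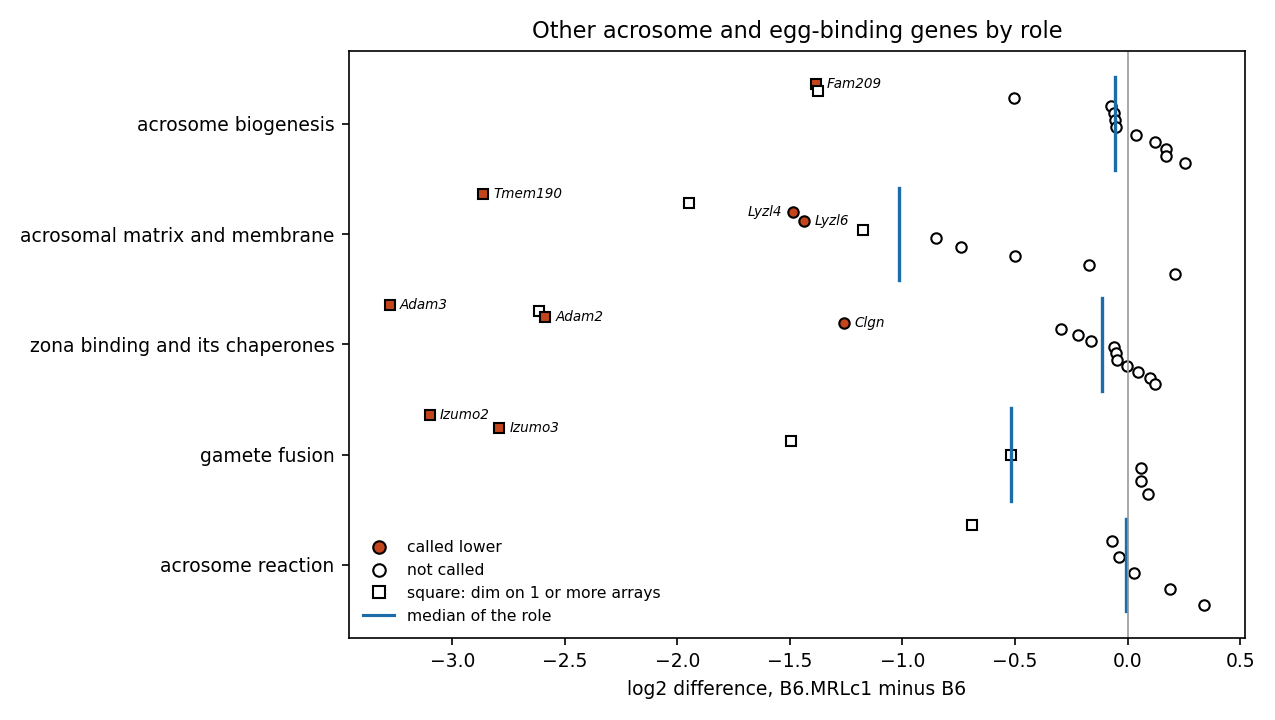
Fitted log2 difference, B6.MRLc1 minus B6, of the 49 other acrosome and egg-binding genes by role, with filled symbols for the 9 called lower, squares for genes not well above background on every array, and a line at each role's median. Most genes of biogenesis and of the acrosome reaction lie near 0, and the lowest values, measured ones, belong to dim genes.

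Lyzl6 and Lyzl4, which encode lysozyme-like relatives of Spaca3, were well above background on all arrays. Lyzl6 fell by 1.44 (-0.91 with normexp; limma adjusted p = 0.0256) and Lyzl4 by 1.49 (-0.70 with normexp; limma adjusted p = 0.0336). Clgn, the gene of calmegin, a chaperone that assembles the sperm surface proteins for zona binding, fell from -0.15 ± 0.32 to -1.41 ± 0.26 (SD, n = 3; limma adjusted p = 0.0447) and measured -1.09 with normexp. It did not pass with quantile scaling or with every probe tested on its own (limma adjusted p = 0.0508 and 0.0518). Its clients Adam2 and Adam3, surface proteins of the sperm head, measured -2.59 and -3.28 and passed (limma adjusted p = 0.0397 and 0.0497), with 1 B6.MRLc1 array well above background for each, and -1.09 and -1.86 with normexp, where both passed. Adam3 did not pass with quantile scaling or with every probe tested on its own (limma adjusted p = 0.0533 and 0.057). Fam209, which encodes a nuclear membrane protein beneath the acrosome, fell by 1.38 (limma adjusted p = 0.0432), with 2 of its B6.MRLc1 spots well above background, and measured -0.51 with normexp, where it passed.

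Tmem190, Izumo2 and Izumo3 were above background in B6 alone by the scanner's flag, so only a bound on the difference is given. Each bound sets the B6 mean against the mean of, per B6.MRLc1 array, the lowest level flagged well above background, or the probe's own where that is higher. The lowest flagged level was -4.49, -5.01 and -5.31 on B6.MRLc1 arrays 1 to 3. On B6 arrays 1 to 3 it was -5.68, -5.76 and -5.70, so the strains were not flagged at the same level. Tmem190, of the inner acrosomal membrane, was at least 4.79-fold higher in B6 (measured means -2.62 in B6 and -5.48 in B6.MRLc1; limma adjusted p = 0.0369 on the measured values and 0.064 with the floor). Izumo2 and Izumo3, relatives of Izumo1, had bounds of 2.33-fold and 1.82-fold (limma adjusted p = 0.0228 and 0.0191 on the measured values, 0.154 and 0.191 with the floor). None of the 3 was called on the floored values from which the bounds come. With normexp Tmem190 measured -0.83 and Izumo2 -0.44, and neither passed (limma adjusted p = 0.0954 and 0.0733), while Izumo3 measured -0.61 and passed (limma adjusted p = 0.0263). Crisp2 and Spesp1 were likewise flagged in B6 alone, with bounds of 1.94-fold and 1.51-fold. Neither was called (limma adjusted p = 0.107 and 0.0655 on the measured values, 0.138 and 0.291 with the floor). With normexp they measured -0.25 and -0.14, and Spesp1 measured -0.001 with the deposited series values, so these bounds did not hold in every run. Tmem95, with a bound of 1.05-fold, and Cplx1, for which none could be set, were not called either (limma adjusted p = 0.397 and 0.115 on the measured values, 0.92 and 0.948 with the floor). Leaving out 1 array changed these calls too. The 9 genes became 0 when array 1 of either strain was dropped (22 and 20 of the 49 at an unadjusted limma p under 0.05), 2 when B6 array 2 was dropped and 3 for B6 array 3, and 1 when B6.MRLc1 array 2 was dropped and 4 for B6.MRLc1 array 3. Of all 25276 genes, 4057 had such a p without array 1 of B6 and 4315 without array 1 of B6.MRLc1.

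Genes whose proteins lie on the egg side were looked at too. Zp1 and Zp2 of the zona pellucida were well above background on none of the 6 arrays. Zp3 and Izumo1r, the gene of Juno, were well above background on all 6 and were not called (-0.14 and -0.28; limma adjusted p = 0.738 and 0.622).

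Markers of the germ cells that build the acrosome were read beside the members. Their lists too were chosen with earlier results of these data known. Of 10 tested round spermatid markers outside the acrosome 4 were called lower, and of 13 markers of elongating spermatids 2 (2.22% of all genes), but 7 and 5 of these markers were dim on some B6.MRLc1 array. Of the 3 and 8 well above background on all 6 arrays, 1 and 1 were called lower (1.47% of such genes), and all 11 lay below on every array (11.8%), with medians of -0.90 and -2.10. With normexp 6 of 10 and 8 of 13 were called lower (2.42% of all genes), with medians of -0.70 and -1.47, and with the floor 4 and 0 (1.47%). The summed linear level of the round spermatid list ran from 2.64 to 3.90 times the 75th percentile in B6 and from 0.95 to 1.21 in B6.MRLc1, and that of the elongating list from 19.4 to 51.3 and from 4.75 to 9.94. Of 12 spermatocyte markers 1 was called lower (2.22% of all genes) and 5 were below on every array (13.8% of all genes; median -0.12). Of the 10 well above background on all 6 arrays, 1 was called lower (1.47% of such genes) and 3 were below on every array (11.8%), with a median of -0.03. With normexp 3 of 12 were called lower (2.42% of all genes), and with the floor 1 (1.47%). Of 9 spermatogonial and 10 Sertoli cell markers 0 were called by limma and 0 were below on every array, while 2 and 4 were above on every array (14.8% of all genes). Of 3 tested red cell markers 1 was called lower, Alas2 (-1.04; limma adjusted p = 0.00872), named here after its value was seen. The other 2, Slc4a1 and Hba-a1, measured 0.14 and 0.81 and were not called, and the median of the 3 was 0.14. The 5 tested adipocyte markers had a median of 1.06 with 0 called and 3 above on every array, and their summed level was 3.69 to 6.12 in B6 and 6.76 to 13.6 in B6.MRLc1. The part of the share of spermatids or of fat in the members' differences was not tested.

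RefSeq start sites (GRCm38.p6) gave an upstream window for 9 of the 10 members, and none was matched for Acr. The 250 bases before the start were searched for 4 motifs on both strands. TGACGTCA is the full cyclic AMP response element, which CREM, a transcription regulator of spermatids, is known to bind, TGACG is its core and lies within it, GTTGCC is part of the X-box that RFX factors bind, and TATAAA is the TATA box. The core TGACG stood upstream of 5 of the 9 genes, Acrbp, Izumo1, Spaca1, Spaca3 and Zpbp2. By window it stood in 7 of the 11 of the 9 genes, since Spaca1 and Spaca3 have 2 start sites each, and in 17.8% of all 32851 such windows. The 2 windows of Spaca1 overlap, as do those of Spaca3, so the 7 hold the same cores more than once. No share per gene was taken over all genes. The full element stood upstream of Izumo1 alone, where 1.55% of all windows hold it. GTTGCC stood upstream of Acrbp and Dkkl1 (10.4% of all windows) and TATAAA upstream of Spaca7 (12.4%). The Spaca7 match was the reverse complement, TTTATA, 242 to 237 bases before the start. The core was thus found both in called genes and in Spaca1, which did not differ beyond its spread. A match is a description of letters and not of a bound site, and a missing match says only that the letters are not in this window.

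The windows of 4 called genes are shown beside those of Spaca1 and Izumo1, with TGACG, TGACGTCA and GTTGCC, or their reverse complements, in capitals and each sequence read toward the gene. They lie at chr7:45211884-45212133, minus strand for Dkkl1, chr11:98550847-98551096, plus strand for Zpbp2, chr11:80858113-80858362, plus strand for Spaca3, chr8:12572786-12573035, plus strand for Spaca7, chr4:34050066-34050315, minus strand for Spaca1 and chr7:45621561-45621810, plus strand for Izumo1.
Dkkl1: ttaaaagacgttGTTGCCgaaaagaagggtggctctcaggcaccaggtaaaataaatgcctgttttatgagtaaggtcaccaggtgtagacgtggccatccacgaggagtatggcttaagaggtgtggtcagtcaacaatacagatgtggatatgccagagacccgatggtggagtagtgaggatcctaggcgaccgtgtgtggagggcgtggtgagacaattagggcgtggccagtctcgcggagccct
Zpbp2: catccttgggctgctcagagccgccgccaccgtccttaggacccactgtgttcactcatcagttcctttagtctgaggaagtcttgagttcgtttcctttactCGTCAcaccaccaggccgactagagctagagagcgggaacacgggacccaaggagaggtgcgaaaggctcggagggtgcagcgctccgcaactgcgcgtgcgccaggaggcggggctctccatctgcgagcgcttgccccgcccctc
Spaca3: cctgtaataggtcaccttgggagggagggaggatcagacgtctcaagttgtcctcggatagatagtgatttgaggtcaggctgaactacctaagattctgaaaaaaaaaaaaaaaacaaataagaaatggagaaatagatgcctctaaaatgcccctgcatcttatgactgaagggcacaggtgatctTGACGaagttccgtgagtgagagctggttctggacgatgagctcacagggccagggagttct
Spaca7: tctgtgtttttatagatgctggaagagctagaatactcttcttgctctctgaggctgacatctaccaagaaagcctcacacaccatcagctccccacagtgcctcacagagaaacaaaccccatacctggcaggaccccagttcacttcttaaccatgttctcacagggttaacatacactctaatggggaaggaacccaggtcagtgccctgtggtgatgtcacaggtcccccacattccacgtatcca
Spaca1: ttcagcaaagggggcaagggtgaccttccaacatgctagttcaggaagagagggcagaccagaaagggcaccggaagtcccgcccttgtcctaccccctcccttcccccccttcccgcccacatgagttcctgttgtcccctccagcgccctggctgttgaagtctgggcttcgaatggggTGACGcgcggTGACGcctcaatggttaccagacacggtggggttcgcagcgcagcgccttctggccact
Izumo1: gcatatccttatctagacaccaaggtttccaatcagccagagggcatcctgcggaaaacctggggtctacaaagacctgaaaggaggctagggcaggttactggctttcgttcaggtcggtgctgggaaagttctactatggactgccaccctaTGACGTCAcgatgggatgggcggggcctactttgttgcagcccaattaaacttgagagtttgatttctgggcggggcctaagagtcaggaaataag
From the start sites of the windows shown, Spaca1 holds the core in 2 places, 69 to 65 and 59 to 55 bases before the start, Spaca3 holds it 62 to 58 bases and Zpbp2 147 to 143 bases before it. From the other start sites the same cores lie 67 to 63 and 57 to 53 bases before that of Spaca1 and 88 to 84 bases before that of Spaca3. The Izumo1 element lies 96 to 89 bases before the start, upstream of a transcript too dim here to compare.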

How the data were processed

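Per the labels' protocols, 0.1 ug of total RNA was labelled with Cy3. The scanner tables that the authors deposited give each spot's intensity, which per the file headers were background-subtracted and spatially detrended within the array, with a surrogate for dim spots. Per the file headers the software was Agilent Feature Extraction 10.7.3.1 and the build mm9; the submitters' processing notes name version 9.5.3. The deposited series table holds log2 values centred per probe, with no method stated in the sources used here.

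Here, control and outlier spots were left out, log2 intensity was taken relative to the 75th percentile of all non-control spots, and spots of a probe were averaged. Probes needed values on 4 arrays and over 0.5 of spots well above background on 3. The probe with the highest mean stood for its gene. Strains were compared with lmFit and eBayes of limma 3.58.1 (R 4.3.3), and genes were called at adjusted p under 0.05. The fit was also run on simulated data with independent noise. Those data held no effect shared by the genes of an array, so they cannot show how the calls depend on single arrays. Exons were not analysed here.

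The members and lists were chosen with earlier results of these data known. Named were all members, called genes of the role list, those with no spot well above background in a strain, and the 5 most alike in pattern. Alternatives were normexp (offset 50), quantile scaling, other percentiles and filters, a floor, kept outliers, averaged probes, the series table, a variance trend, array weights, the replicate block and leaving out each array. Testing every probe, the lists over bright genes, the marker lists under normexp and the floor, and the 3 gaps between probes, were added after seeing the data.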

Additional observations from a re-analysis of the deposited data

How the results depend on the processing

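No difference of a called gene named above changed sign in any alternative run, Alas2 aside, which was not followed through the alternatives. The count of all genes called, 664, was 50 to 486 when 1 array was left out, 50 without the filter on dim probes, 440 with the series table, 1202 with a variance trend and 1607 with array weights. The members called, 5, were 0 to 4 when 1 array was left out, 3 with the series values, 3 of 6 over probes well above background on all arrays and 0 without the filter. The 9 called genes of the role list were 0 to 4, 3, 3 and 0 under the same alternatives. The members' median of -1.36 moved to -0.52 with normexp, -0.68 over probes well above background on all arrays, -0.91 with the series values and -1.12 with array weights, and the cause was not tested beyond the 6 genes left by that filter. The normexp offset draws dim genes toward 0 by construction, and how much of that move it makes up was not tested.

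With the replicate number, which is also the slide column, as a block, limma called 0 genes, 0 members and 0 genes of the role list, with 4866, 7 and 24 at an unadjusted p under 0.05. The labels do not say that the numbers pair the samples. Deviations of same-numbered arrays correlated at -0.04, 0.17 and 0.09 over genes, and 4 of 6 arrays correlated best with their own number. Signals near background limit Spaca3, Spaca7, Acrv1 and Izumo1.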
